A study of Mus musculus with 9 samples.

Results

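Matricellular proteins are secreted into the extracellular matrix, where they regulate how cells meet collagen, growth factors and integrins rather than bearing load. The group described here comprises the SPARC family (Sparc, Sparcl1, Smoc1 and Smoc2), the thrombospondins Thbs1 and Thbs2, tenascin C (Tnc), periostin (Postn), osteopontin (Spp1) and the thrombospondin-repeat protein F-spondin (Spon1). In hematopoietic stroma, osteopontin and tenascin C are known components of the bone marrow niche, and periostin and tenascin C bind integrins on hematopoietic cells. Members were taken as all probe sets to which the platform annotation gives 1 gene symbol, that symbol being 1 of these 10 genes. This gave 15 of 36701 probe sets that are not controls, for 8 of the 10 genes. Thbs1 appeared only on 1 probe set that also lists another gene, and no probe set in the annotation used here carried Spp1, so neither was analysed here.

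RNA of 3 mouse stromal cell lines was measured on 9 Affymetrix arrays, with 1 array of each type (MG-U74A, MG-U74B or MG-U74C) per line. AGM-s3-A9 and AGM-s3-A7 come from the aorta-gonad-mesonephros (AGM) region of the embryo, an early site of hematopoietic stem cells. OP9 comes from newborn calvaria and is known to have been established from op/op mice, which lack functional macrophage colony-stimulating factor. AGM-s3-A9 and OP9 support hematopoiesis and AGM-s3-A7 does not, and the labels give no genotype, passage, culture or treatment. Values below are quantile-normalized linear intensities, comparable between lines for 1 probe set and not between probe sets.

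A detection level was set for each array type as the higher of the median of all normalized values and the 95th percentile of 34 control probe sets without a target. This level was 49.0 for MG-U74A, 52.8 for MG-U74B and 61.5 for MG-U74C. Where a line does not exceed this level, a fold against it is a lower bound, written "at least". The single array per line and type allows no p-value, SD or interval between cultures. Where 2 probe sets of 1 array type report on a gene, in 1128 to 1160 genes, they disagreed with a robust SD of 0.30 to 0.32 on the log2 ratio of a single probe set, and 2 such SDs correspond to 1.52-fold to 1.57-fold. This error describes disagreement between probe sets and does not cover separate cultures. It was taken only from probe sets above the detection level in both lines compared. Of these pairs, 4.48% to 5.59% were more than 2-fold apart in their ratios. Of the stromal markers, Col1a1, Col1a2, Col3a1 and Pdgfrb were above the detection level in all 3 lines and Thy1 in both AGM lines, with a summed level of 15609 to 16134 in the AGM lines and 7801 in OP9. No macrophage or endothelial marker (of 4 and 5) reached the detection level in any line, and Laptm5 did so as the only 1 of 5 hematopoietic markers, in the AGM lines. Epcam and Cdh1, but not Krt8 and Krt18, read above it in all lines. Of the adipocyte markers, Adipoq and Fabp4, but not Cd36, did so, in OP9 alone. Vim, a transcript abundant in stromal cells, lay below it in all 3 lines, so a reading below the level does not show that a transcript is missing.

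Of the 15 member probe sets, 9 for 7 genes exceeded the detection level in at least 1 line, where 38.1% of all probe sets that are not controls did so. Sparc, Thbs2, Smoc1 and Postn were above it in all 3 lines, Smoc2 in AGM-s3-A7 alone, Sparcl1 in AGM-s3-A9 alone and Tnc in OP9 alone, the last 2 by a narrow margin. Both Spon1 probe sets were below it throughout. The 4 genes measured in every line thus showed 3 arrangements of the lines: Sparc and Thbs2 lower in OP9, Postn lower in AGM-s3-A9, and Smoc1 within 1.27-fold in all lines after quantile normalization. In RNA from a whole culture, fewer cells of a type and less RNA per cell cannot be told apart.

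**Figure D1:**
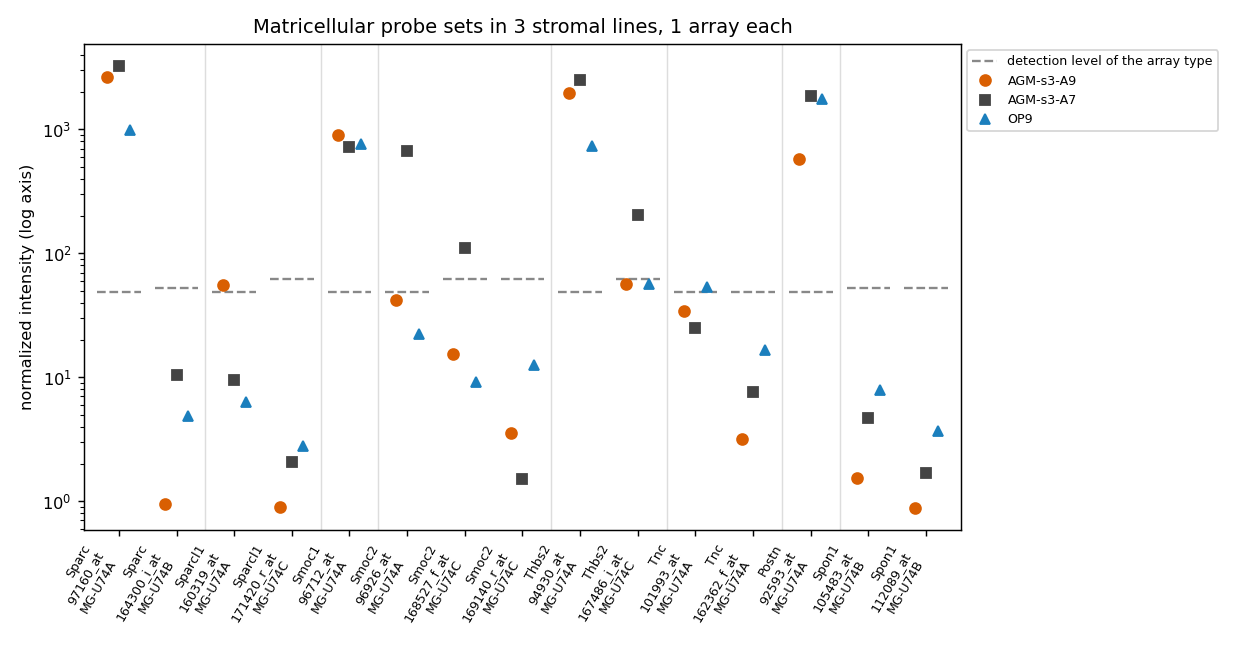
Normalized intensity (log axis) of the 15 member probe sets in AGM-s3-A9 (circles), AGM-s3-A7 (squares) and OP9 (triangles), 1 array each, with the detection level of the array type as a dashed line. Smoc2 reads 667 in AGM-s3-A7 on MG-U74A and under 49.0, the detection level, in the other lines, while Sparc and Thbs2 on the same array type are lowest in OP9.

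Sparc encodes a collagen-binding glycoprotein, also called osteonectin, that takes part in collagen fibril assembly and is abundant in bone and stroma. On MG-U74A it read 983 in OP9, 2632 in AGM-s3-A9 and 3240 in AGM-s3-A7. The AGM lines lay close together and OP9 stood below both. OP9 was 3.29-fold lower than AGM-s3-A7 and 2.68-fold lower than AGM-s3-A9, beyond the disagreement between probe sets, whereas AGM-s3-A9 was 1.23-fold below AGM-s3-A7, within it. Among the 5722 probe sets of MG-U74A measured in both OP9 and AGM-s3-A7, 80 had a log2 ratio below that of Sparc. The second Sparc probe set, on MG-U74B, is named with the _i suffix of restricted probe choice. It read between 0.96 and 10.5 in the 3 lines, below detection, and gives no ratio.

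Thbs2 encodes thrombospondin 2, a trimeric protein that inhibits angiogenesis and influences collagen fibril structure and matrix metalloproteinase levels. Its MG-U74A probe set read 738 in OP9, 1974 in AGM-s3-A9 and 2495 in AGM-s3-A7. These values follow the same order of lines as Sparc. OP9 was 3.38-fold lower than AGM-s3-A7 and 2.67-fold lower than AGM-s3-A9, and the AGM lines differed by 1.26-fold. A second Thbs2 probe set on MG-U74C, also with the _i suffix, read 57.1 in OP9, 56.9 in AGM-s3-A9 and 205 in AGM-s3-A7. It placed AGM-s3-A9 with OP9 at or below the detection level, at least 3.33-fold below AGM-s3-A7. The probe sets of Thbs2 thus shared the direction for OP9 and differed in size for AGM-s3-A9. On the MG-U74C array of AGM-s3-A7 the 95th percentile of the control probe sets was 70.3 after normalization, against 42.2 in AGM-s3-A9 and 69.6 in OP9.

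On their MG-U74A probe sets Sparc and Thbs2 had like ratios in the 3 comparisons, and their start regions are shown for that reason, although the MG-U74C probe set of Thbs2 differed for AGM-s3-A9. RefSeq windows (GRCm38.p6) were found for 5 of the 10 genes. The 250 bases before the annotated start are given 5′ to 3′ for Sparc at chr11:55420081-55420330 and Thbs2 at chr17:14694263-14694512, both on the minus strand. Capitals mark matches, on either strand, to the TATA box letters TATAAA, the CCAAT box, the GC box letters GGGCGG or the AP-1 letters TGANTCA, and no match overlapped another.
Sparc: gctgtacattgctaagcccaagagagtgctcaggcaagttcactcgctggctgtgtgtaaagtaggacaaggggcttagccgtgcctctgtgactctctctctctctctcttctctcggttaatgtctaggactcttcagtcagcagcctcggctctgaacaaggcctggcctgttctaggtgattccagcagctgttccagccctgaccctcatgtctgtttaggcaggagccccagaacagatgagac
Thbs2: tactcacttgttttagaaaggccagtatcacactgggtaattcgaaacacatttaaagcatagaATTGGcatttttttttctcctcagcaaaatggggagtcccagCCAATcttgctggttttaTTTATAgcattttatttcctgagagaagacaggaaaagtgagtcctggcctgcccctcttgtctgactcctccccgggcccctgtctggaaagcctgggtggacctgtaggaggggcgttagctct
The Sparc window held no match to these 4 motifs. The Thbs2 window held CCAAT at 2 places, 186 to 182 and 144 to 140 bases before the start, and TATAAA on the reverse strand 126 to 121 bases before it. Of 32851 windows of this length, 12.4% held TATAAA, 33.9% CCAAT, 32.7% GGGCGG and 6.75% TGANTCA. No motif searched was common to both windows. A match is a description of the letters and says nothing of a bound factor.

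Postn encodes periostin, a fasciclin-domain protein that binds integrins and promotes collagen cross-linking in periosteum and other connective tissue. It read 1772 in OP9, 582 in AGM-s3-A9 and 1852 in AGM-s3-A7. AGM-s3-A9 was the low line, and AGM-s3-A7 and OP9 differed by 1.05-fold, within the disagreement between probe sets. AGM-s3-A9 was 3.19-fold lower than AGM-s3-A7 and 3.05-fold lower than OP9. Of the 5826 probe sets of MG-U74A measured in both AGM lines, 18 had a log2 ratio of AGM-s3-A9 over AGM-s3-A7 below that of Postn. A single Postn probe set was available. On the intensities as deposited the difference was smaller, 2.07-fold from AGM-s3-A7 and 1.94-fold from OP9, the latter under the threshold of 2-fold. Of the start regions of Postn, that of the downstream start held TATAAA 26 to 21 bases before the start.

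Smoc1 and Smoc2 encode related calcium-binding proteins of basement membranes, and SMOC1 is known as an extracellular modulator of bone morphogenetic protein signalling. Smoc1 read 763 in OP9, 907 in AGM-s3-A9 and 716 in AGM-s3-A7. After quantile normalization the 3 lines lay within 1.27-fold of each other, inside the disagreement between probe sets. As deposited, Smoc1 in AGM-s3-A9 was 2.05-fold above AGM-s3-A7, a call made under that scaling alone of the 4 compared, and with hybridization control scaling it was 1.67-fold above, beyond the disagreement between probe sets.

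Smoc2 read 22.1 in OP9, 42.1 in AGM-s3-A9 and 667 in AGM-s3-A7 on MG-U74A. Only AGM-s3-A7 was above the detection level, and each supportive line was lower by at least 13.6-fold at the detection level of 49.0. As deposited, AGM-s3-A9 was above detection and 9.92-fold lower than AGM-s3-A7, and with a doubled detection level the bound was 6.81-fold for both supportive lines. A second probe set, on MG-U74C and with the _f suffix of possible cross-hybridisation, had the same arrangement. It read 110 in AGM-s3-A7 against 15.3 in AGM-s3-A9 and 9.23 in OP9, with a bound of 1.79-fold. Its AGM-s3-A7 value lay above the 70.3 of that array's own controls. The remaining Smoc2 probe set read at most 12.7, below detection in all lines. Smoc2 and Smoc1, the closest relatives in the group, therefore had different arrangements of the lines on MG-U74A, Smoc1 being above detection in all 3 and Smoc2 in AGM-s3-A7 alone.

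**Figure D2:**
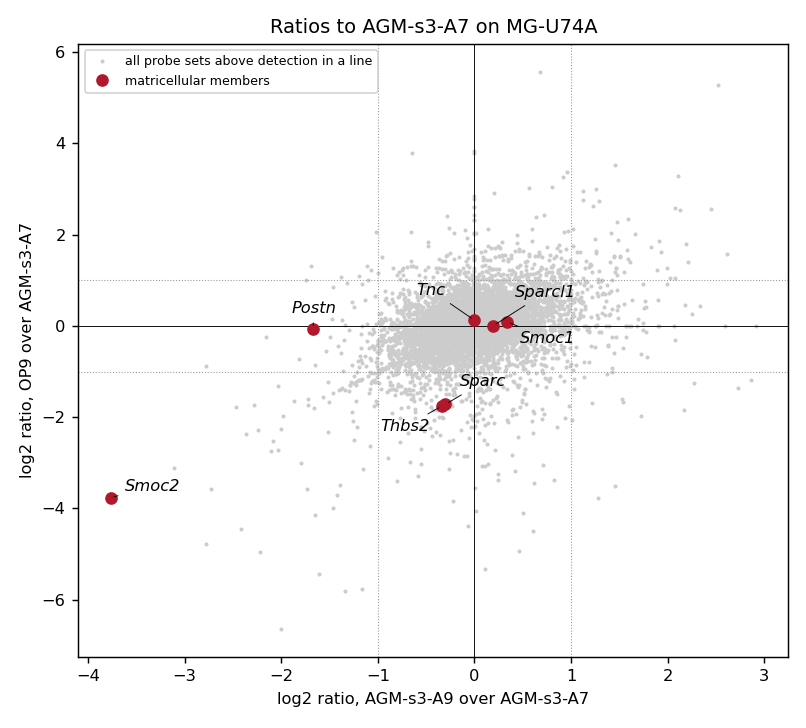
Log2 ratios to AGM-s3-A7 on MG-U74A, for AGM-s3-A9 (horizontal) and OP9 (vertical), over probe sets above the detection level in at least 1 line (grey) with the members in red; values at or below the detection level were set to it, so the point of Smoc2 is a bound in both directions. Both axes share the AGM-s3-A7 array. Smoc2 lies at -3.77 on both axes, Postn at -1.67 on the horizontal axis only, and Sparc and Thbs2 at -1.72 and -1.76 on the vertical axis.

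Of the remaining members, Sparcl1 encodes hevin, an anti-adhesive relative of SPARC. It read 6.33 in OP9, 56.0 in AGM-s3-A9 and 9.59 in AGM-s3-A7, so only AGM-s3-A9 passed the level of 49.0 and the bound was 1.14-fold. Its other probe set stayed between 0.90 and 2.82. Tnc encodes a hexameric matrix protein of developing and wounded tissue. It read 53.4 in OP9, 34.2 in AGM-s3-A9 and 24.8 in AGM-s3-A7, with OP9 alone above the level and a bound of 1.09-fold. Its other probe set read between 3.20 and 16.6. The intensities as deposited placed Tnc below the level in all lines. Spon1, a secreted protein of neural tissue, read between 0.89 and 7.84 on its 2 probe sets. Of the 6 member probe sets below detection in all lines, 4 carried a suffix. This was _f, of possible cross-hybridisation, or _i or _r, of restricted probe choice.

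Between AGM-s3-A9 and AGM-s3-A7, the supportive and non-supportive lines of 1 region, AGM-s3-A9 was lower by 2-fold or more on 3 of the 15 member probe sets, namely those of Postn and Smoc2 on MG-U74A and of Thbs2 on MG-U74C, and 0 were higher. Over all probe sets that are not controls 0.779% were lower and 1.03% higher. The Smoc2 and MG-U74C Thbs2 probe sets exceeded the detection level in AGM-s3-A7 alone, so against that line they could only read lower. The brighter Thbs2 probe set was not among the 3.

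OP9 against AGM-s3-A7 sets the calvarial supportive line against the non-supportive line. Here 4 member probe sets were at least 2-fold lower in OP9, for Sparc, Smoc2 and Thbs2 (both probe sets), and 0 were higher. The background was 2.02% lower and 1.75% higher. The Smoc2 and MG-U74C Thbs2 probe sets exceeded the detection level in AGM-s3-A7 alone, so here they could only read lower. The Sparc and MG-U74A Thbs2 probe sets were measured in both lines. The summed levels of the stromal and smooth muscle marker lists were also lower in OP9, at 7801 against 15609 and 1136 against 5274. In OP9 4 of 6 and 3 of 4 markers were above detection, and in AGM-s3-A7 5 of 6 and 3 of 4. Myh11 went the other way, above detection in OP9 and not in AGM-s3-A7. Bright probe sets weigh most in such sums, as Col1a1 and Col1a2 at 6174 and 5555 in AGM-s3-A7. The part of these markers in the ratios was not tested.

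Between the supportive lines, OP9 was at least 2-fold lower than AGM-s3-A9 on 2 member probe sets, of Sparc and Thbs2, and higher on 1, of Postn. Over all probe sets 2.18% were lower and 1.69% higher. The Smoc2 probe sets and the MG-U74C probe set of Thbs2 were at or below detection in both lines and give no ratio here.

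Both supportive lines were at least 2-fold below AGM-s3-A7 on 2 member probe sets, of Smoc2 on MG-U74A and Thbs2 on MG-U74C, and above it on 0. Over all probe sets this was so for 0.398% and 0.311%. The 2 probe sets exceeded the detection level in AGM-s3-A7 alone, so in both other lines they could only read lower. The 2 comparisons share the AGM-s3-A7 arrays. Without MG-U74C, or without probe sets with a suffix such as _f, _i or _r, Smoc2 was the only member left. On its brighter probe set Thbs2 was lower by 3.38-fold in OP9 but by 1.26-fold in AGM-s3-A9.

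**Figure D3:**
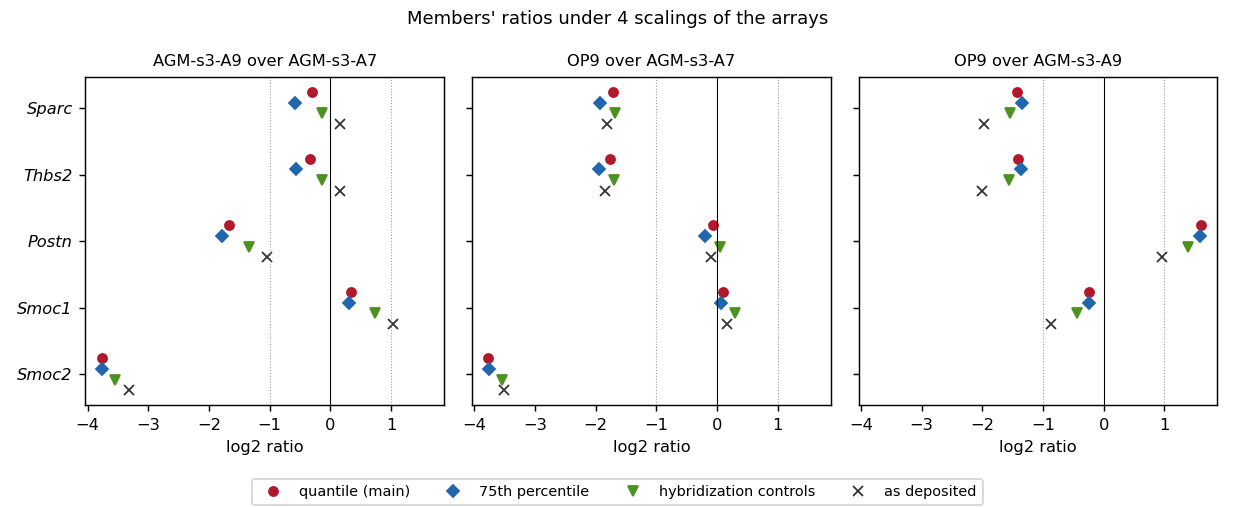
Log2 ratios of 5 members on their brightest probe set in the 3 comparisons, under quantile normalization, scaling to the 75th percentile, scaling to the hybridization controls, and as deposited; dotted lines mark 2-fold, and the values of Smoc2 are bounds except for AGM-s3-A9 as deposited. Sparc and Thbs2 stay beyond 2-fold below both AGM lines in OP9 under all 4, and their small ratio between the AGM lines changes sign as deposited, to 0.16.

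Relatives of the members outside the group of 10 were read on the brightest probe set of each gene. Of 15 relatives, 12 had a probe set and 6 were above detection in a line. AGM-s3-A9 was higher than AGM-s3-A7 by at least 2-fold for 2 of the 12 and lower for 0, beside 1.65% and 1.21% of all genes. These were Fstl1, a follistatin-like member of the SPARC family, at 2021 against 847 (2.39-fold), and Thbs3, a pentameric thrombospondin, at 143 against 63.1 (2.27-fold). In OP9 Fstl1 read 845 and Thbs3 57.9, both close to AGM-s3-A7. Relative to AGM-s3-A7, OP9 was higher for 1, Comp, and lower for 1, Tgfbi, beside 2.79% and 3.24% of all genes. Comp, a cartilage thrombospondin, read 168 in OP9 and below detection elsewhere, at least 2.73-fold higher. As it exceeded the detection level in OP9 alone, Comp could only read higher there. Tgfbi, the closest relative of periostin, read 3.93 in OP9, 552 in AGM-s3-A9 and 466 in AGM-s3-A7, the OP9 value being at least 9.51-fold below that of AGM-s3-A7. Tgfbi and Postn were thus low in different lines, Tgfbi in OP9 and Postn in AGM-s3-A9. The other Tgfbi probe set, with the _r suffix, read 3.09 to 6.28 and was below detection in all lines. Against AGM-s3-A9, OP9 was lower for 4 relatives (Fstl1, Thbs3, Tgfbi and Spon2) and higher for Comp, beside 3.56% and 2.74% of all genes. Spon2, a relative of F-spondin, read 43.1 in OP9, 223 in AGM-s3-A9 and 116 in AGM-s3-A7, at least 3.62-fold lower in OP9 than in AGM-s3-A9. Each of these differences reached 2-fold under all 4 scalings. The other Spon2 probe sets read at most 11.0, below detection in all lines. Tgfbi and Spon2 did not exceed the detection level in OP9, so against the AGM lines OP9 could only read lower.

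Receptors and matrix partners of matricellular proteins numbered 21, all with a probe set and 13 above detection in a line. Between the AGM lines 0 reached 2-fold in either direction, except for Bmp1, higher in AGM-s3-A9 as deposited and with hybridization control scaling. The background over all genes was 1.65% higher and 1.21% lower in AGM-s3-A9. In OP9, 2 were at least 2-fold lower than in each AGM line and 0 higher, which is 9.52% of the list lower beside 3.24% of all genes against AGM-s3-A7 and 3.56% against AGM-s3-A9. They were Bmp1, a procollagen C-proteinase, at 121 in OP9 against 759 in AGM-s3-A9 and 462 in AGM-s3-A7, and Lrp1, an endocytic receptor that takes up thrombospondins, at 929 against 2025 and 1886. Lrp1 did not reach 2-fold against AGM-s3-A7 with hybridization control scaling, at a log2 ratio of -0.92. A second Bmp1 probe set read 128 in OP9 against 391 and 234, short of 2-fold against AGM-s3-A7 at a log2 ratio of -0.87. Of the genes under 2-fold, Cd47, Itgav, Itgb5 and Calr are given as examples chosen after their values were seen. Cd47, the thrombospondin receptor, read 522 in OP9 against 559 and 606 in the AGM lines, and the integrin alpha V gene Itgav read 1394 against 1496 and 1493. The lines lay within the disagreement between probe sets for both. The Itgav probe set carries the _f suffix of possible cross-hybridisation, and the values of its other probe sets are not given here. The beta 5 integrin gene Itgb5, whose product pairs with alpha V to bind periostin, read 413 in OP9, 417 in AGM-s3-A9 and 777 in AGM-s3-A7, short of 2-fold at log2 ratios of -0.90 and -0.91. Calr, a transcript of nearly all cells, lay between 1.31 and 6.03, below detection, which limits what such a reading shows for other genes.

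**Figure D4:**
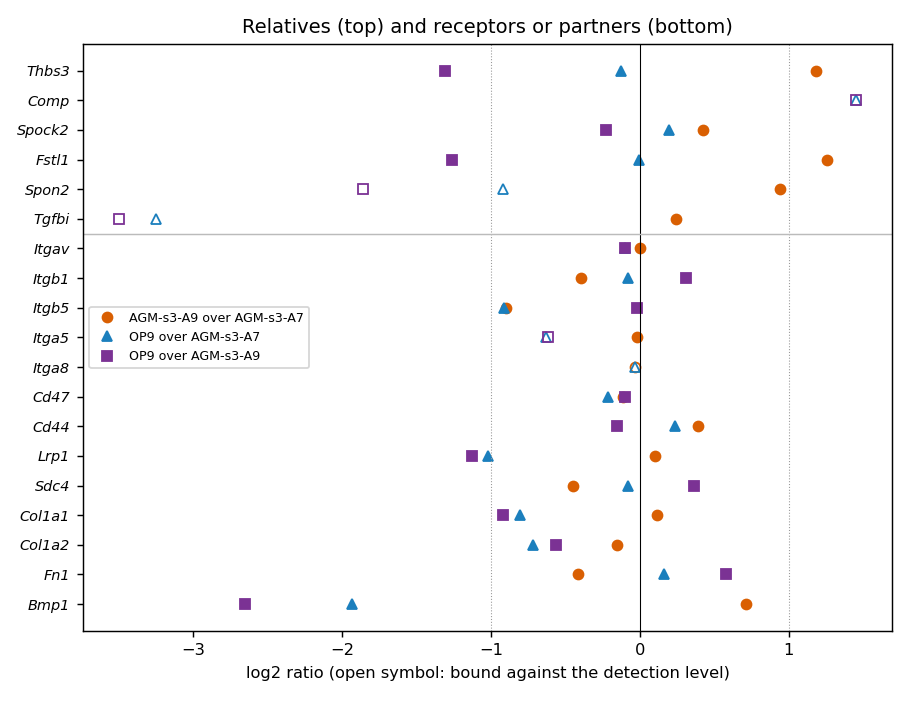
Log2 ratios of the 6 relatives and 13 receptors or partners above the detection level in at least 1 line, on the brightest probe set, for AGM-s3-A9 over AGM-s3-A7 (circles), OP9 over AGM-s3-A7 (triangles) and OP9 over AGM-s3-A9 (squares); open symbols are bounds and dotted lines mark 2-fold. Fstl1 and Thbs3 lie above 1 for AGM-s3-A9 over AGM-s3-A7, and Tgfbi and Bmp1 lie furthest below 0 in OP9.

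Smoc2 was the only member at least 4-fold apart in a comparison on its brightest probe set. By distance between centred log2 values over the 3 lines, the 3 genes nearest to it among 6245 probe sets of MG-U74A were Pcbd1, Aqp1, a water channel, and Cdh13, a GPI-anchored cadherin. In AGM-s3-A7 Pcbd1 read 56.9, Aqp1 74.8 and Cdh13 136. Each of the 3, like Smoc2, was above detection in AGM-s3-A7 alone, so the distances rest on unmeasured values in the other 2 lines and neither their size nor their order can be read.

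In the RefSeq gene order of GRCm38.p6, Smoc2 and Thbs2 lie on chromosome 17 with 3 genes between them, all annotated as long noncoding RNAs. Of the 5 genes on each side of Thbs2, 5 were measured and 3 were above detection in a line, Smoc2 among them. Of the other 2, Phf10, a chromatin remodelling subunit, read 370 in OP9, 201 in AGM-s3-A9 and 311 in AGM-s3-A7, and 1600012H06Rik was at 58.0 in AGM-s3-A9 and below detection elsewhere. Phf10, the only one of these with a ratio in all comparisons, was not lower in OP9. Sparcl1 and Spp1 lie on chromosome 5 with 7 genes between them, among them Dspp, Dmp1 and Ibsp of the bone and tooth matrix cluster, each below detection in all 3 lines.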

How the data were processed

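Total RNA (6 ug per labelling, per the labels) of 3 lines was hybridised to 3 array types. The authors deposited 1 linear intensity per probe set and array; how probes were summarised and scaled is not given in the sources used here. On MG-U74A the median deposited intensity was 42.8 in OP9, 64.5 in AGM-s3-A9 and 42.7 in AGM-s3-A7, so log2 intensities were quantile-normalized within array type, which would remove a general shift between lines. Symbols were those of the platform annotation, updated to the RefSeq symbol where the annotation gave a single gene identifier found in RefSeq. Of 36701 probe sets without 198 controls, 29131 had 1 symbol, 724 several and 6846 none. Values at or below the detection level were set to it, and a call is a ratio of at least 2-fold. The 10 members, all their probe sets, 15 relatives and 21 receptors or partners were named or counted by rule, list genes from 2-fold and likeness for members from 4-fold. Cd47, Itgav, Itgb5 and Calr, and the likeness of Sparc, lie outside this rule and were added after their values were seen. The members and lists were chosen with earlier results of these data known. Alternatives covered scaling, detection level, threshold and probe set choice. The number of arrays limits the precision. Protein sequences were not used here. The script was tested on simulated data. Python 3.11.15, numpy 2.4.6 and pandas 2.3.3 were used.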

Additional observations from a re-analysis of the deposited data

How the results depend on the processing

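Of 40 counts recomputed under alternatives, 35 stayed within 1.5 times. As deposited, 5 member probe sets differed by at least 2-fold between AGM-s3-A9 and AGM-s3-A7 instead of 3, with Smoc1 higher and 4 lower. Over all probe sets 4.12% were then higher and 1.34% lower, beside 1.03% and 0.779% after quantile normalization. At a 3-fold threshold 1 instead of 3 (Postn) differed between OP9 and AGM-s3-A9. The count of probe sets with both supportive lines on the same side of AGM-s3-A7 went from 2 to 1 under 3 alternatives. These were a doubled detection level, no probe sets with a suffix such as _f, _i or _r, and no MG-U74C. Smoc2 remained each time. The share over all probe sets was not computed at 3-fold or under these 3 alternatives. Of 120 recomputed member ratios 0 of those past 2-fold changed sign and 23 moved by more than the probe set SD. As deposited 11 of 18 moved, with hybridization control scaling 2 of 18 and with 75th percentile scaling 0 of 18. Many of the remaining ratios could not move. The alternative detection levels leave Sparc, Smoc1, Postn and the brighter Thbs2 probe set unchanged. A median over 1 usable probe set repeats the main value. Scaling to spiked hybridization controls was chosen after seeing the data; it shifted the median log2 ratio of detected probe sets to 0.15 for AGM-s3-A9 and 0.17 for OP9, each over AGM-s3-A7. Of calls between the AGM lines over all probe sets, 57.0% were higher in AGM-s3-A9, beside 75.4% as deposited (1513 higher, 493 lower) and 82.6% with control scaling (845 and 178). For OP9 against AGM-s3-A7 the share was 46.4%, and 63.7% with control scaling. Of the receptors and partners, OP9 was lower than AGM-s3-A9 for 4 as deposited (Itga5 and Col1a1 added). With 75th percentile scaling it was lower than AGM-s3-A7 for 3 (Col1a1 added). Over all probe sets 4.54% and 2.18% were lower under these scalings, beside 2.18% and 2.02% after quantile normalization. Both of these scalings also put Spon2, a relative, past 2-fold below AGM-s3-A7 in OP9. Why the arrays differ in scale was not tested. No paired analysis was possible because each line has 1 array per type. Signal near the detection level limits Sparcl1 and Tnc, and Spon1 lay well below it in all lines.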

Other observations

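The likeness of Sparc and Thbs2 was looked at after their values were seen. Among 6245 probe sets of MG-U74A with 1 symbol and a level above detection in a line, Thbs2 was the 2nd nearest to Sparc in centred log2 values over the 3 lines, at a distance of 0.03. The nearest was F2r, the thrombin receptor gene, at 382 in OP9, 1022 in AGM-s3-A9 and 1287 in AGM-s3-A7, and the next after Thbs2 was the homeobox gene Hoxd8, at 74.4 in OP9, 200.0 in AGM-s3-A9 and 239 in AGM-s3-A7. With 3 arrays these distances are a description only.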
